A study of Mus musculus with 18 samples.

Results

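Lymph node homing and egress genes are described here as 7 genes, *Klf2*, *Klf3*, *S1pr1*, *S1pr4*, *Ccr7*, *Cd69* and *Cd44*, out of 45706 genes listed in each of 18 RNA-seq libraries. The members were taken by gene symbol and matched to their Ensembl identifiers, and all 7 were found and passed the filter on low counts. The cells were OT-I CD8+ T cells, purified from mouse spleen, with a transgenic T cell receptor for an ovalbumin (OVA) peptide. Repeat peptide stimulated cells, the study's in vitro exhausted cells, were given the peptide again and again for 5 days, whereas single peptide stimulated cells met it at the start of the culture and were then rested. From day 5 to day 8 each kind of culture received DMSO, the solvent, or 1 µM ibrutinib, a covalent inhibitor of BTK and related kinases. By the study's methods, the peptide stayed in the medium of the repeat peptide cultures over these days. Those cells thus met the drug under continued stimulation, and the single peptide cells met it at rest. This gave 4 libraries of repeat peptide cells with DMSO, 5 of repeat peptide cells with ibrutinib, 5 of single peptide cells with DMSO and 4 of single peptide cells with ibrutinib, all made on day 8. Experiments A, B, C and D, named in the genotype entry of the labels, gave a library of every group, whereas E gave 1 repeat peptide ibrutinib library and F gave 1 single peptide DMSO library. The strain was labelled WT throughout, but the genotype entries of B, C, D and E name a btk knockout, and the study's text describes this RNA-seq without btk deficient cells. *Btk* itself had at most 27 expected counts in any library. The cells were a purified culture with no lymph node in it and no migration was measured, so the values are RNA levels of genes that guide migration in an animal.

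T cells enter lymph nodes from blood with the help of CCR7, which follows chemokines made in the node, and leave again when S1PR1 senses the sphingosine-1-phosphate of lymph. In resting T cells KLF2 maintains transcription of *S1pr1*, and T cell receptor signals lower KLF2. CD69, an early activation protein, binds S1PR1 and takes it from the cell surface, while CD44 is a hyaluronan receptor that stays high on antigen-experienced T cells. KLF3 belongs to the same family as KLF2 and recruits corepressors, and S1PR4 is a further receptor for the same lipid found mainly on blood cells.

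With DMSO, *Klf2*, *Klf3* and *S1pr1* were the members with the largest differences between stimulations. They were 7.89-fold, 15.2-fold and 14.2-fold lower in repeat than in single peptide cells, and ibrutinib raised them 2.68-fold, 3.89-fold and 4.19-fold in repeat peptide cells. *S1pr4* differed less, and *Cd44* went the opposite way in both comparisons. *Ccr7* was lower after repeat stimulation but was not called for ibrutinib in the main fit. It was called higher with ibrutinib in both kinds of culture once the experiment was a block. Those fits called 13.8% of all genes in repeat and 9.09% in single peptide cells. *Cd69* spread widely between experiments, and no comparison called it in the main fit. Repeat against single stimulation, with DMSO and with ibrutinib, called it once the experiment was a block.

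The promoters are shown because *Klf2* and *Klf3* encode factors that bind CACCC boxes. Of the 7 members, 4 had an entry in the RefSeq promoter table of build GRCm38.p6, and the stretches of 3 are printed 5′ to 3′ on the strand of the gene, ending before the first annotated start. They are chr8:72318812-72319032 on the plus strand for *Klf2*, chr5:64803271-64803387 on the plus strand for *Klf3* and chr10:81500138-81500387 on the minus strand for *S1pr4*. Capitals mark CACCC or its reverse complement GGGTG and the FOXO motifs TGTTTAC and TGTTTGC, searched on both strands.
Klf2: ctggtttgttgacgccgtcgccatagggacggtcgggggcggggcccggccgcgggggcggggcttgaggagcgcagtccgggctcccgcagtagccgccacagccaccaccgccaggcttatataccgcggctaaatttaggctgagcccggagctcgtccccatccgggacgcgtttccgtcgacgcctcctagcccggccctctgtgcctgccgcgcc
Klf3: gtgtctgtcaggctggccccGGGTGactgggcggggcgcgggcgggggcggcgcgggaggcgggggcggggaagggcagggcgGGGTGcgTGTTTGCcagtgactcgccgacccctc
S1pr4: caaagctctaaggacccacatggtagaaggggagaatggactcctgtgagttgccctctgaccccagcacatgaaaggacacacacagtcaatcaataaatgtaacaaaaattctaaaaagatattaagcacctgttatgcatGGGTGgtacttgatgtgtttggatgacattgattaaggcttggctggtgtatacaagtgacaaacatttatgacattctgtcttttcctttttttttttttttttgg
In the 250 bases before the RefSeq start, CACCC was found 5 times for *Klf3*, once each for *Klf2* and *S1pr4*, and nowhere for *Cd44*, while 52.0% of all 32851 RefSeq promoters of that length hold it. *Klf3* held the FOXO motif, which 7.29% of promoters hold. The ETS core GGAA, present in 93.5% of promoters, was found 8 times for *Cd44* and once for each of the other 3. The *Klf2* and *Klf3* windows were rich in G and C at 71.2% and 78.4%, against 56.4% for *Cd44* and 38.8% for *S1pr4*. *S1pr1*, *Ccr7* and *Cd69* were not in the table.

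Normalized counts are counts scaled to the same effective library size. A gene was called where edgeR's quasi-likelihood test, adjusted over 12255 tested genes, gave an adjusted p-value under 0.05, provided that its normalized counts averaged 50 or more and its log2 fold change exceeded 0.2 in size. The libraries held 23445922 to 51995372 expected counts. The lowest expected count of a member was 144, for *Klf3* in repeat peptide DMSO library D. Markers of CD8 T cells summed to between 3143 and 4622 TPM in every library, TPM being reads per transcript length scaled to the same total in each library, against at most 8.01 TPM for 6 B cell genes, 14.43 TPM for 10 myeloid and dendritic cell genes and 5.35 TPM for 4 red cell and platelet genes. A list of 5 stromal genes, which includes *Pecam1*, reached 28.96 to 72.26 TPM, and its ranges overlapped across all 4 groups. The CD4 T cell list of 3 genes was highest in repeat peptide cells with DMSO, at 16.41 to 21.37 TPM, against 5.21 to 16.29 TPM in repeat peptide cells with ibrutinib and at most 5.60 TPM in single peptide cells. This list was led by *Zbtb7b*, at a mean of 17.7 TPM in repeat peptide cells with DMSO, whereas *Cd4* itself averaged at most 0.04 TPM in any group. The B cell genes *Ms4a1*, *Cd79a* and *Pax5* and the myeloid genes *Csf1r* and *Adgre1* likewise averaged under 0.05 TPM in every group. Other markers at low levels moved with the groups. The monocyte gene *Cd14* averaged 1.94 TPM in repeat peptide cells with DMSO and 0.578 TPM with ibrutinib, against at most 0.008 TPM in single peptide cells, and *Zbtb46*, of classical dendritic cells, averaged 1.005 and 0.470 TPM against at most 0.104 TPM. *Cd79b*, of B cells, went the other way, at 1.74 and 2.49 TPM in repeat and 4.40 and 4.75 TPM in single peptide cells with DMSO and ibrutinib. The lists did not move as a whole. *Cd22*, also of B cells, was higher in repeat peptide cells, at 1.26 and 1.69 TPM against 0.072 and 0.440 TPM. The myeloid genes *Lyz2* and *Itgam* were lowest in repeat peptide cells with DMSO, at 0.01 and 0.098 TPM. In single peptide cells with DMSO they averaged 1.18 ± 2.65 and 0.312 ± 0.114 TPM (SD, n = 5). The part of these genes' source cells in the results below was not tested. In bulk RNA, fewer cells of a type and less RNA per cell cannot be told apart.

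**Figure D1:**
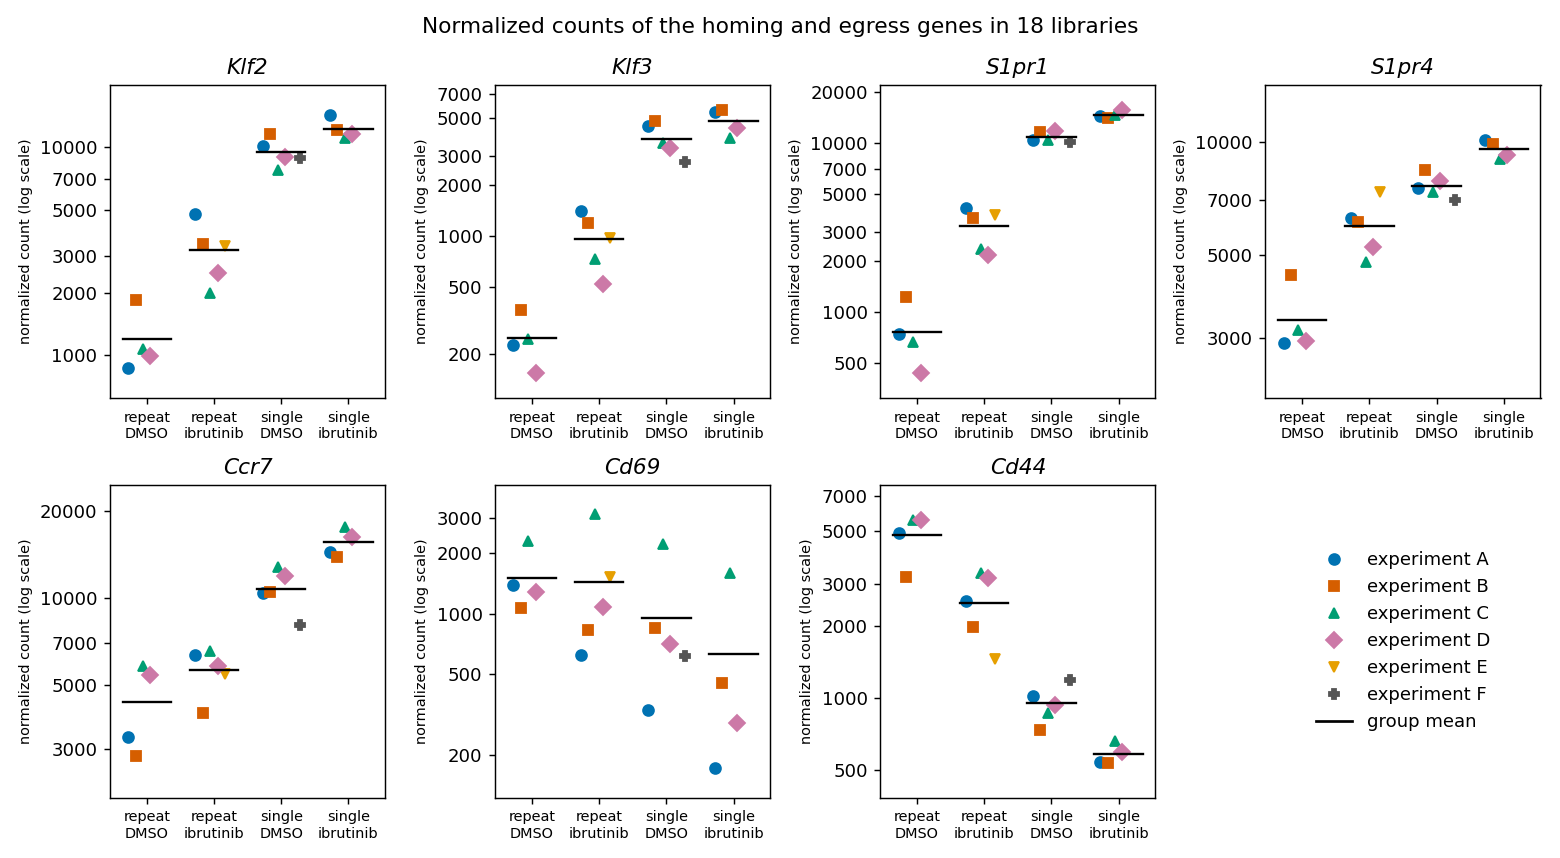
Normalized counts of the 7 genes in each of 18 libraries, on a log axis, by group; symbols stand for experiments A to F and lines for group means. *S1pr1* climbed from 436 to 1227 in repeat peptide cells with DMSO to at least 14120 in single peptide cells with ibrutinib, and experiment C held the highest *Cd69* of every group.

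The first comparison asked how far repeat stimulation moved these genes from the rested state. In the DMSO groups 6 of the 7 members were called, against 47% of all genes tested. Lower in repeat peptide cells were 5 members (24.2% of all genes were called lower), and *Cd44* alone was higher (22.8% of all genes were called higher). Since about as many genes were called as not, the count itself says little about these members, and the sizes of their changes carry the description. The median log2 fold change was close to 0 over all tested genes and -1.31 over the members.

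*Klf2* (chr8:72319033-72321656, plus strand), the factor that sustains exit and homing genes, had normalized counts of 871, 1849, 1067 and 994 in repeat peptide DMSO libraries A, B, C and D. In single peptide DMSO libraries A, B, C, D and F it had 10080, 11510, 7734, 9012 and 8827. Every single peptide library lay far above the highest repeat peptide library, that of experiment B. The log2 fold change was -2.98 ± 0.25 (SE, edgeR adjusted p = 2.5e-08).

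*Klf3* (chr5:64803388-64832901, plus strand) had 227, 366, 244 and 154 normalized counts in repeat peptide DMSO libraries A to D, and 4499, 4794, 3549, 3320 and 2738 in single peptide DMSO libraries A, B, C, D and F. The groups were far apart, and B was again the highest repeat peptide library. Its log2 fold change was -3.93 ± 0.30 (SE, edgeR adjusted p = 9.81e-09), the largest fall of the 7. The annotation places 2 listed RNAs over this locus, 1 of them on the same strand, but no member had a fractional expected count in any library.

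*S1pr1* (chr3:115710433-115715072, minus strand), the exit receptor, had 742, 1227, 669 and 436 normalized counts in repeat peptide DMSO libraries A to D. The single peptide DMSO libraries A, B, C, D and F held 10450, 11700, 10520, 11880 and 10120, a narrow group with no overlap. The log2 fold change was -3.83 ± 0.25 (SE, edgeR adjusted p = 1.82e-09). Within experiments the difference ran from -3.25 in B to -4.77 in D.

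*S1pr4* (chr10:81497747-81500132, minus strand) had 2904, 4408, 3143 and 2939 normalized counts in repeat peptide DMSO libraries A to D and 7515, 8420, 7368, 7869 and 6982 in single peptide DMSO libraries A, B, C, D and F. The groups did not overlap, although library B stood well above the other repeat peptide libraries. The log2 fold change of -1.19 ± 0.13 (SE, edgeR adjusted p = 8.44e-07) left the RNA of this receptor less lowered than that of *S1pr1*. The ratio of *S1pr1* to *S1pr4* TPM, a measure chosen after the values were seen and therefore given without a test, was 0.169 ± 0.043 (SD, n = 4) in repeat peptide cells with DMSO and 1.08 ± 0.038 (SD, n = 5) in single peptide cells with DMSO. With ibrutinib it was 0.404 ± 0.072 (SD, n = 5) and 1.17 ± 0.11 (SD, n = 4). Thus *S1pr4* had the higher TPM of the 2 in all 9 repeat peptide libraries, where the ratio was at most 0.500. *S1pr1* had the higher TPM in all 9 single peptide libraries, though by little in some, where the ratio was as low as 1.05. Receptor protein was not measured. The ratio of *Klf3* to *Klf2* TPM moved less, from 0.080 ± 0.024 (SD, n = 4) in repeat peptide cells with DMSO to 0.171 ± 0.051 (SD, n = 5) in single peptide cells with DMSO.

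*Ccr7* (chr11:99144196-99155077, minus strand), the homing receptor, had 3302, 2832, 5820 and 5405 normalized counts in repeat peptide DMSO libraries A to D and 10410, 10530, 12850, 11960 and 8082 in single peptide DMSO libraries A, B, C, D and F. Experiments C and D were the high libraries of both groups, and the groups stayed apart. The log2 fold change was -1.31 ± 0.20 (SE, edgeR adjusted p = 3.01e-05), so *Ccr7* RNA remained abundant in the repeat peptide cells.

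*Cd44* (chr2:102811141-102901665, minus strand) was the member that rose. Its normalized counts were 4865, 3201, 5554 and 5557 in repeat peptide DMSO libraries A to D against 1021, 731, 868, 934 and 1190 in single peptide DMSO libraries A, B, C, D and F. The groups did not overlap, with B the lowest of the repeat peptide libraries. The log2 fold change was 2.34 ± 0.21 (SE, edgeR adjusted p = 8.44e-08). The counts sum all transcripts of the gene, so its splice forms are not told apart.

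*Cd69* (chr6:129267325-129275436, minus strand), the activation protein that opposes S1PR1, had 1391, 1071, 2302 and 1277 normalized counts in repeat peptide DMSO libraries A to D and 334, 850, 2234, 711 and 617 in single peptide DMSO libraries A, B, C, D and F. The single peptide library of experiment C lay above 3 of the 4 repeat peptide libraries, so the groups overlapped. The log2 fold change of 0.67 ± 0.60 (SE, edgeR adjusted p = 0.357) was not called. Within experiments it was above 0 in 4 of 4, from 0.04 in C to 2.06 in A, and with the experiment as a block in the edgeR fit it was 0.87 (adjusted p = 0.0326), where 53.6% of all genes were called. In that blocked fit libraries E and F, alone in their experiments, add nothing to a difference between groups.

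The second comparison asked what ibrutinib did to these genes in repeat peptide cells. Called were 5 of the 7, against 5.92% of all genes tested. *Klf2*, *Klf3*, *S1pr1* and *S1pr4* rose (4.01% of all genes were called higher) and *Cd44* fell (1.92% were called lower). The members' median log2 fold change was 0.83, beside a median close to 0 over all tested genes.

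With ibrutinib *Klf2* had 4780, 3433, 1988, 2485 and 3353 normalized counts in repeat peptide libraries A, B, C, D and E. All were above the DMSO libraries, with C only just above DMSO library B. The log2 fold change was 1.42 ± 0.23 (SE, edgeR adjusted p = 0.00107). For *Klf3* the same libraries held 1412, 1198, 732, 522 and 972, also clear of the DMSO group, with a log2 fold change of 1.96 ± 0.28 (SE, edgeR adjusted p = 0.00035).

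*S1pr1* reached 4165, 3615, 2377, 2171 and 3782 in ibrutinib libraries A, B, C, D and E, every value above the highest DMSO library. Its log2 fold change of 2.07 ± 0.23 (SE, edgeR adjusted p = 4.86e-05) was the largest of the 7, and 1.43% of all tested genes changed more in size. *S1pr4* held 6256, 6115, 4782, 5255 and 7357 in those libraries. C and D were the lowest, as they were for *Klf2*, *Klf3* and *S1pr1*. Its log2 fold change was 0.83 ± 0.13 (SE, edgeR adjusted p = 0.000806).

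*Cd44* fell to 2543, 1974, 3319, 3178 and 1447 normalized counts in ibrutinib libraries A, B, C, D and E. Library C overlapped the lowest DMSO library, B, but within experiments A to D the gene was lower in 4 of 4. The log2 fold change was -0.94 ± 0.21 (SE, edgeR adjusted p = 0.00972), and with only these 2 groups in the fit the edgeR adjusted p was 0.0508.

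*Ccr7* and *Cd69* were not called. The 5 ibrutinib libraries A, B, C, D and E held 6348, 3979, 6572, 5792 and 5437 counts of *Ccr7*, and the groups overlapped. Its log2 fold change was 0.37 ± 0.20 (SE, edgeR adjusted p = 0.277), which became 0.42 with an adjusted p of 0.0428 when the experiment was a block and 13.8% of all genes were called. Within experiments it was higher with ibrutinib in 4 of 4, by 0.10 in D to 0.94 in A. *Cd69* held 625, 827, 3129, 1079 and 1532 with a log2 fold change of -0.07 ± 0.60 (SE, edgeR adjusted p = 0.96), lower in 3 of the 4 experiments and higher in C.

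**Figure D2:**
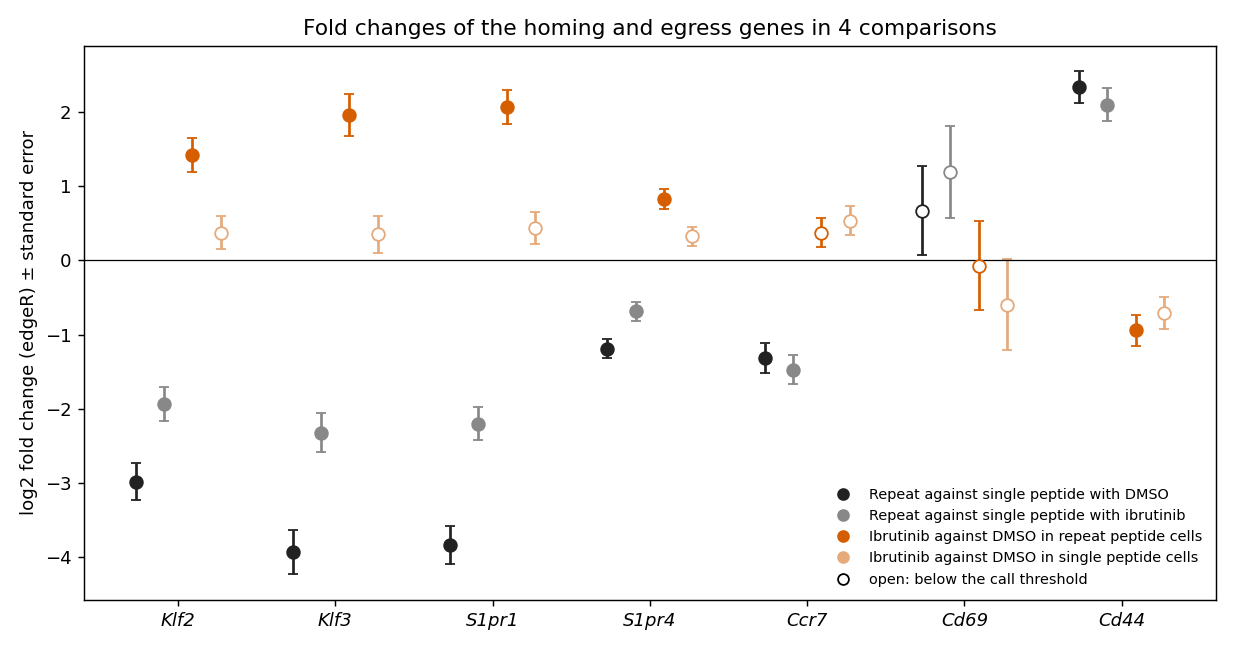
Log2 fold changes with standard errors from edgeR for the 7 genes in 4 comparisons; filled points were called and open points were not. Repeat against single stimulation with DMSO ran from -3.93 for *Klf3* to 2.34 for *Cd44*, and ibrutinib in repeat peptide cells from -0.94 for *Cd44* to 2.07 for *S1pr1*.

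The third comparison placed ibrutinib on cells that were no longer stimulated. In single peptide cells 0 of the 7 members were called by edgeR, against 3.04% of all genes tested, with 3 at an unadjusted p under 0.05 and 1 (*Cd44*) called by DESeq2. The estimates had the same sign as in repeat peptide cells for each member, but how many of all genes agree in sign was not counted. For *Cd69* the shared sign says little. Its estimate in repeat peptide cells was -0.07 and turned in 4 of 17 alternatives. In single peptide cells it turned without DMSO library C. Within experiments A to D the 5 members *Klf2*, *Klf3*, *S1pr1*, *S1pr4* and *Ccr7* were higher in 4 of 4 and *Cd69* and *Cd44* lower in 4 of 4. The share of all genes that kept 1 direction across A to D was not counted, here or in the other comparisons. *S1pr1* had 14470, 14120, 14710 and 15820 normalized counts in ibrutinib libraries A to D, all above the 5 DMSO libraries, with a log2 fold change of 0.43 ± 0.22 (SE, edgeR adjusted p = 0.402). *Ccr7* had 14500, 13910, 17700 and 16310, again above every DMSO library, with 0.54 ± 0.19 (SE, edgeR adjusted p = 0.182). *Cd44* had 541, 535, 658 and 594, below every DMSO library, with -0.71 ± 0.22 (SE, edgeR adjusted p = 0.0936). With the experiment as a block the edgeR adjusted p was 0.0409 for *Ccr7* and 0.00205 for *Cd44*, in a fit that called 9.09% of all genes. With only the compared groups fitted the edgeR adjusted p was 0.0383 for *S1pr1* and 0.0415 for *Cd44*, with 181 genes called in all.

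*S1pr4* had 10130, 9885, 8983 and 9224 normalized counts in those 4 libraries, clear of the DMSO group, with a log2 fold change of 0.32 ± 0.13 (SE, edgeR adjusted p = 0.236). *Klf2* had 14220, 12130, 11070 and 11530 and *Klf3* 5479, 5626, 3818 and 4358, both overlapping their DMSO groups. Their log2 fold changes were 0.38 ± 0.22 and 0.35 ± 0.25 (SE, edgeR adjusted p = 0.51 and 0.629). *Cd69* had 171, 454, 1600 and 288 with -0.59 ± 0.61 (SE, edgeR adjusted p = 0.772), and library C stood high here too.

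**Figure D3:**
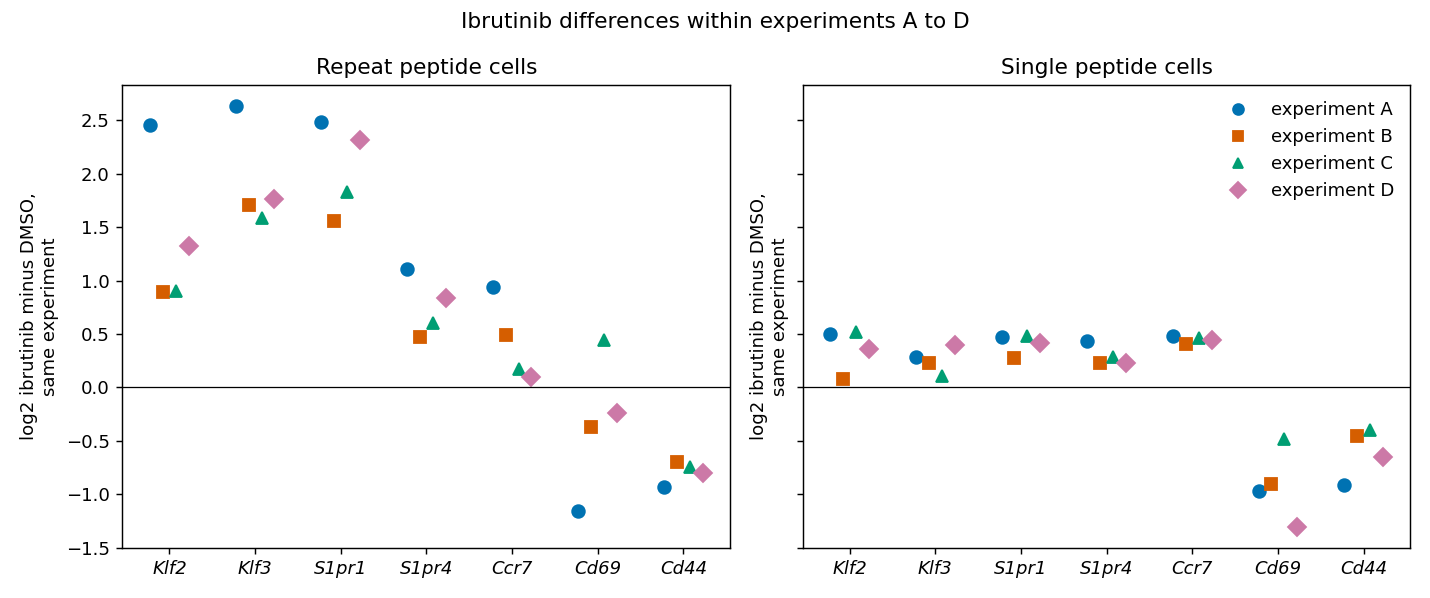
Log2 normalized count with ibrutinib minus that with DMSO in the same experiment, for A to D, in repeat (left) and single (right) peptide cells. For *Klf2*, *Klf3*, *S1pr1*, *S1pr4* and *Ccr7* all points lie above 0 on both sides, and for *Cd44* all lie below 0. The share of all genes with such agreement was not counted.

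Whether ibrutinib acted differently in the 2 kinds of culture was tested as an interaction, the ibrutinib effect in repeat peptide cells minus that in single peptide cells. Of the 7 members 2 were called, against 1.26% of all genes. For *S1pr1* the difference was 1.63 ± 0.32 on the log2 scale (SE, edgeR adjusted p = 0.011), and it was called in 25 of 25 alternative analyses. For *Klf3* it was 1.61 ± 0.37 (SE, edgeR adjusted p = 0.0399), and the call was lost in 14 of 25 alternatives, with adjusted p-values up to 0.0857. *Klf2* had 1.05 ± 0.32 (SE, edgeR adjusted p = 0.135) and *S1pr4* 0.51 ± 0.18 (SE, edgeR adjusted p = 0.238). DESeq2's Wald test called the *Klf2* difference, at 1.06 with an adjusted p of 0.0336. Without repeat peptide DMSO library B, 4 members were called, with 168 genes called in all. In that library *Klf2*, *Klf3*, *S1pr1* and *S1pr4* were highest of their group, so leaving it out widens their rise with ibrutinib. The lost calls of *Klf3* came from leaving out other libraries and from the fit with no filter on low counts. For *Ccr7*, *Cd69* and *Cd44* the differences were -0.16 ± 0.28, 0.52 ± 0.85 and -0.24 ± 0.30 (SE), none called.

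Experiment A was the only experiment with all 4 groups whose genotype entry names no knockout. Its own differences had the sign of the fit in both ibrutinib comparisons and in the DMSO comparison for all 7 members. The libraries of A are part of that fit, so this agreement is not independent of it. How many of all genes agree in sign was not counted, and whether the genotype mattered was not tested. With ibrutinib in repeat peptide cells they were 2.46 for *Klf2*, 2.64 for *Klf3*, 2.49 for *S1pr1* and 1.11 for *S1pr4* on the log2 scale, each the largest of the 4 experiments. Those of B, C and D ran from 0.89 to 1.32 for *Klf2*, 1.58 to 1.76 for *Klf3*, 1.56 to 2.32 for *S1pr1* and 0.47 to 0.84 for *S1pr4*.

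The distance that remained after ibrutinib was read from repeat peptide cells with ibrutinib against single peptide cells with DMSO, 2 groups that share no library. Called were 6 of the 7 members, against 32.9% of all genes. *Klf2* was still lower by 1.56 ± 0.21, *Klf3* by 1.97 ± 0.25 and *S1pr1* by 1.76 ± 0.21 on the log2 scale (SE, edgeR adjusted p = 2.61e-05, 1.16e-05 and 6.36e-06), without overlap between the groups. *Ccr7* was lower by 0.94 ± 0.19 (SE, edgeR adjusted p = 0.000731) and *Cd44* was higher by 1.39 ± 0.20 (SE, edgeR adjusted p = 4.2e-05). *S1pr4* came nearest, lower by 0.36 ± 0.12 (SE, edgeR adjusted p = 0.0262), with ibrutinib library E, at 7357, inside the single peptide range. That call was lost without ibrutinib library C, without ibrutinib library D or without single peptide DMSO library B, with adjusted p-values up to 0.0835. *Cd69*, at 0.60 ± 0.57 (SE, edgeR adjusted p = 0.428), was not called.

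Repeat against single stimulation under ibrutinib called 6 of the 7 as well, against 38.4% of all genes. The log2 fold changes were -1.93 ± 0.23 for *Klf2*, -2.32 ± 0.26 for *Klf3* and -2.20 ± 0.22 for *S1pr1*. For *S1pr4*, *Ccr7* and *Cd44* they were -0.68 ± 0.13, -1.47 ± 0.20 and 2.10 ± 0.22 (SE). *Cd69* had 1.19 ± 0.62 (SE, edgeR adjusted p = 0.128), and passed with the experiment as a block at 1.33 (edgeR adjusted p = 0.00421, in a fit that called 48.6% of all genes) and at 2.26 (edgeR adjusted p = 0.00621) without single peptide ibrutinib library C, whose 1600 counts were the highest of its group.

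Per length, the order of the members turned over with stimulation. *Ccr7* had the highest mean TPM of the 7 in every group, from 110 ± 37.9 TPM (SD, n = 4) in repeat peptide cells with DMSO to 330 ± 22.7 TPM (SD, n = 4) in single peptide cells with ibrutinib. In repeat peptide cells with DMSO it was followed by *S1pr4* at 67.2 ± 10.8, *Cd44* at 64.1 ± 17.9, *Cd69* at 49.7 ± 19.5, *Klf2* at 32.5 ± 10.0, *S1pr1* at 11.6 ± 4.54 and *Klf3* at 2.61 ± 0.98 TPM (SD, n = 4). The ranges of neighbours overlapped down to *Klf2*, whereas *S1pr1* and *Klf3* each stood apart below. In single peptide cells with DMSO *Klf2* at 233 ± 55.1 TPM came next to *Ccr7* at 240 ± 32.0 TPM with overlapping ranges, and *S1pr1* at 148 ± 15.8 and *S1pr4* at 137 ± 18.6 TPM also overlapped (SD, n = 5). *Klf3* at 39.3 ± 11.7, *Cd69* at 26.5 ± 19.4 and *Cd44* at 11.4 ± 2.60 TPM followed in that group, *Cd44* now the lowest. *S1pr1* exceeded 42.1% of tested genes in repeat peptide cells with DMSO, 78.1% in repeat peptide cells with ibrutinib and 94.0% in single peptide cells with DMSO.

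**Figure D4:**
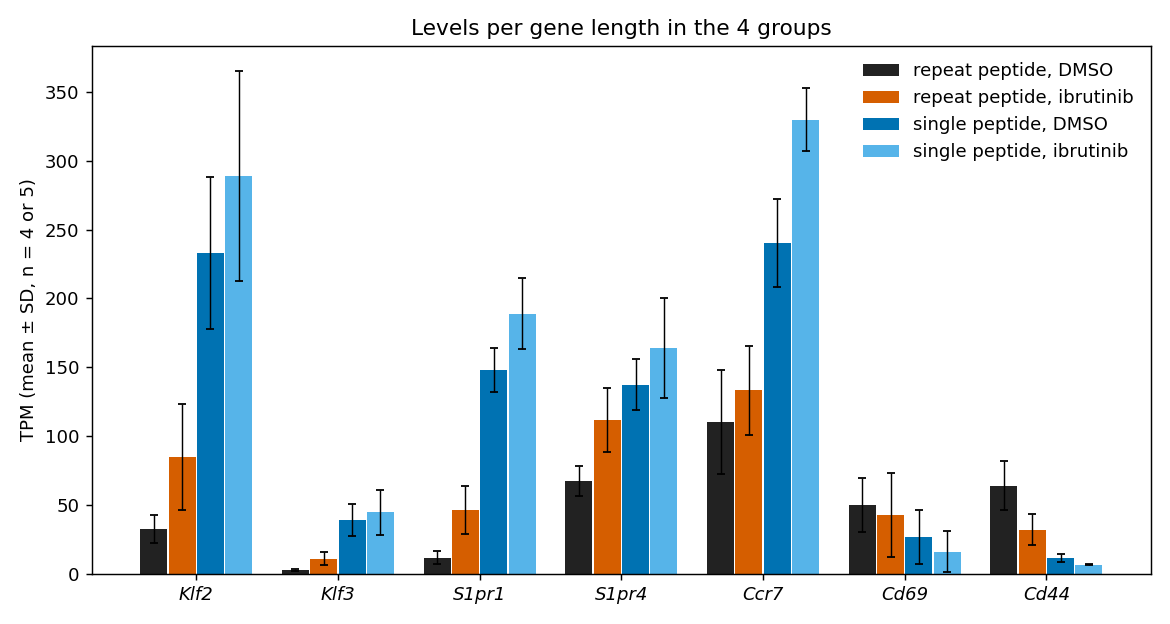
Mean TPM of the 7 genes in the 4 groups with SD, 4 or 5 libraries a group. *Ccr7* was highest in each group, from 110 to 330 TPM, and *Klf3* was lowest in both repeat peptide groups whereas *Cd44* was lowest in both single peptide groups.

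The genes whose pattern was most like a member's were taken as those with the smallest root mean square difference of centred log2 CPM (counts scaled to library size) over the 18 libraries. *Klf3* and *S1pr1* were nearest to each other among all tested genes, at 0.24, where the median distance of tested genes from *Klf3* was 1.74. *Acp5*, at 0.27, came next for *S1pr1*, followed by *Nod1* at 0.36. *Klf2* lay at 0.43 from *S1pr1* and 0.44 from *Klf3*, and closer to *Arl4c* at 0.26, *Cacnb1* at 0.29 and *Elovl7* at 0.30. *S1pr4* was nearest to *Atp1b3*, *Twf2* and *Slc25a45*, all at 0.12 to 0.13, *Ccr7* to *Pdk1* at 0.23, *Hs6st1* and *H2-DMa*, and *Cd44* to *Cobll1*, *Tube1* and *Farp1* at 0.28 to 0.29. *Cd69* had no close neighbour, since its nearest genes *Fabp5*, *Rasd1* and *Rnf225* lay at 0.62 to 0.64.

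The other genes of the pathway were read from 7 lists, beside the same shares of all genes. Among KLF paralogs 9 of 15 were tested. Between the DMSO groups *Klf13* fell by 1.06 ± 0.13 and *Klf16* by 0.55 ± 0.11 (SE, log2) while *Klf10*, an immediate response gene, rose by 0.85 ± 0.25, and ibrutinib raised only *Klf13* in repeat peptide cells, by 0.49 ± 0.13 (SE, edgeR adjusted p = 0.0311), a call lost in 6 of 17 alternatives. So the falls of *Klf2* and *Klf3* had no counterpart of their size among the tested paralogs. In the sphingosine-1-phosphate list 12 of 18 were tested. The phosphatase *Plpp2* rose by 1.53 ± 0.23 and the receptor *S1pr2* by 0.60 ± 0.18 with repeat stimulation (SE, log2). With it 4 genes fell, among them *Arrb2* by 0.71 ± 0.12 and *Sgpp1* by 0.50 ± 0.11 (SE, log2). Over all genes 22.8% were called higher and 24.2% lower. Ibrutinib changed 0 of the 12 in repeat peptide cells by edgeR, beside 5.92% of all genes. Of the 12, 1 had an unadjusted p under 0.05 and 0 were called by DESeq2.

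Genes of lymph node entry and positioning moved both ways with repeat stimulation, 6 higher and 5 lower of 14 tested. Over all genes 22.8% were called higher and 24.2% lower. *Ccrl2*, an atypical chemokine receptor, rose by 4.77 ± 0.58 and *Gcnt1*, which builds branched O-glycans, by 4.43 ± 0.49. *Cxcr5* fell by 3.71 ± 0.67 and *Itgb7*, the integrin chain used to enter gut lymphoid tissue, by 1.84 ± 0.14 (SE, log2). Ibrutinib raised 2 of the 14 in repeat peptide cells, beside 4.01% of all genes called higher. These 2 included *Itgb7*, up by 1.16 ± 0.14 (SE, edgeR adjusted p = 5.61e-05). *Itgb7* had 8380 ± 1510 (SD, n = 4) normalized counts with DMSO and 18710 ± 3229 (SD, n = 5) with ibrutinib in repeat peptide cells, without overlap, and its call was lost in 0 of 17 alternatives.

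The next 14 genes were of the FOXO and ERK5 pathways, which act on *Klf2*, or linked to them. With repeat stimulation 6 were called lower and 0 higher, beside 24.2% and 22.8% of all genes. The falls were led by *Foxo1* at -1.34 ± 0.14 and *Map3k3* at -0.73 ± 0.11 (SE, log2). *Mef2c* went the other way, by 7.30 ± 0.89 (SE, log2, edgeR adjusted p = 2.68e-06), uncalled because its normalized counts averaged under 50. It had 55.3 ± 30.3 (SD, n = 4) in repeat and 0.256 ± 0.572 (SD, n = 5) in single peptide cells with DMSO. In repeat peptide cells with ibrutinib it had 13.6 ± 6.94 (SD, n = 5), a fall also not called. Called with ibrutinib in repeat peptide cells were 2 of the 14, both higher, beside 4.01% of all genes called higher. The cytokine receptor *Il7r*, known like *Klf2* as a target of FOXO1, rose by 0.63 ± 0.14 (SE, edgeR adjusted p = 0.0105) and *Foxo1* by 0.47 ± 0.13 (SE, edgeR adjusted p = 0.04). The *Foxo1* call was lost in 6 of 17 alternatives, and that of *Il7r* without repeat peptide DMSO library D (edgeR adjusted p = 0.0522). Between the DMSO groups *Il7r* did not follow *Foxo1* or *Klf2*, at 0.04 ± 0.14 (SE, log2, edgeR adjusted p = 0.838). In single peptide cells ibrutinib raised *Il7r* as well, by 0.70 ± 0.14 (SE, edgeR adjusted p = 0.00899). A link between these genes was not tested.

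Tissue retention genes were the list with the largest median difference between the DMSO groups, at 1.56 on the log2 scale. Of 13 tested 8 were called higher and 2 lower, beside 22.8% and 24.2% of all genes. The G protein regulators *Rgs16* and *Rgs2* rose by 4.41 ± 0.33 and 3.35 ± 0.43, and *Rgs10* fell by 1.38 ± 0.21 (SE, log2). *Itgae*, the integrin chain that holds T cells in epithelium, fell much further than *Rgs10*, with 80.1 ± 87.4 (SD, n = 4) normalized counts in repeat and 3976 ± 1352 (SD, n = 5) in single peptide cells with DMSO, a log2 fold change of -5.65 ± 0.73 (SE, edgeR adjusted p = 5.45e-06). Ibrutinib raised it to 704 ± 516 (SD, n = 5) in repeat peptide cells, by 3.14 ± 0.66 (SE, edgeR adjusted p = 0.00759), and raised *Rgs10* by 0.71 ± 0.20, a call lost in 7 of 17 alternatives. The transcription factors *Bhlhe40* and *Prdm1* fell with ibrutinib, with log2 fold changes of -1.55 ± 0.30 and -1.5 ± 0.35 (SE, edgeR adjusted p = 0.00397 and 0.013), the latter at an adjusted p of 0.0561 without repeat peptide DMSO library D.

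Of 16 motility genes 8 were called lower with repeat stimulation, beside 24.2% of all genes. They were led by *Dock2* at -0.86 ± 0.11 and *Arhgef1* at -0.84 ± 0.17, and *Rac1* rose by 0.47 ± 0.08 (SE, log2). Ibrutinib changed 0 of the 16 in repeat peptide cells by edgeR, with 5 at an unadjusted p under 0.05, 3 called with the experiment as a block and 4 by DESeq2. Among 10 tested partners and ligands of CD44, 4 rose and 2 fell with repeat stimulation, beside 22.8% and 24.2% of all genes. *Spp1*, the secreted ligand osteopontin, was up by 8.03 ± 0.68 and the hyaluronan receptor *Hmmr* by 1.93 ± 0.29 (SE, log2). *Slc9a3r1* and *Msn* were down by 0.49 ± 0.10 and 0.32 ± 0.09 (SE, log2). *Ezr*, an adaptor of CD44 to actin, fell with ibrutinib by 0.46 ± 0.13 (SE, edgeR adjusted p = 0.0356), a call lost in 9 of 17 alternatives.

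**Figure D5:**
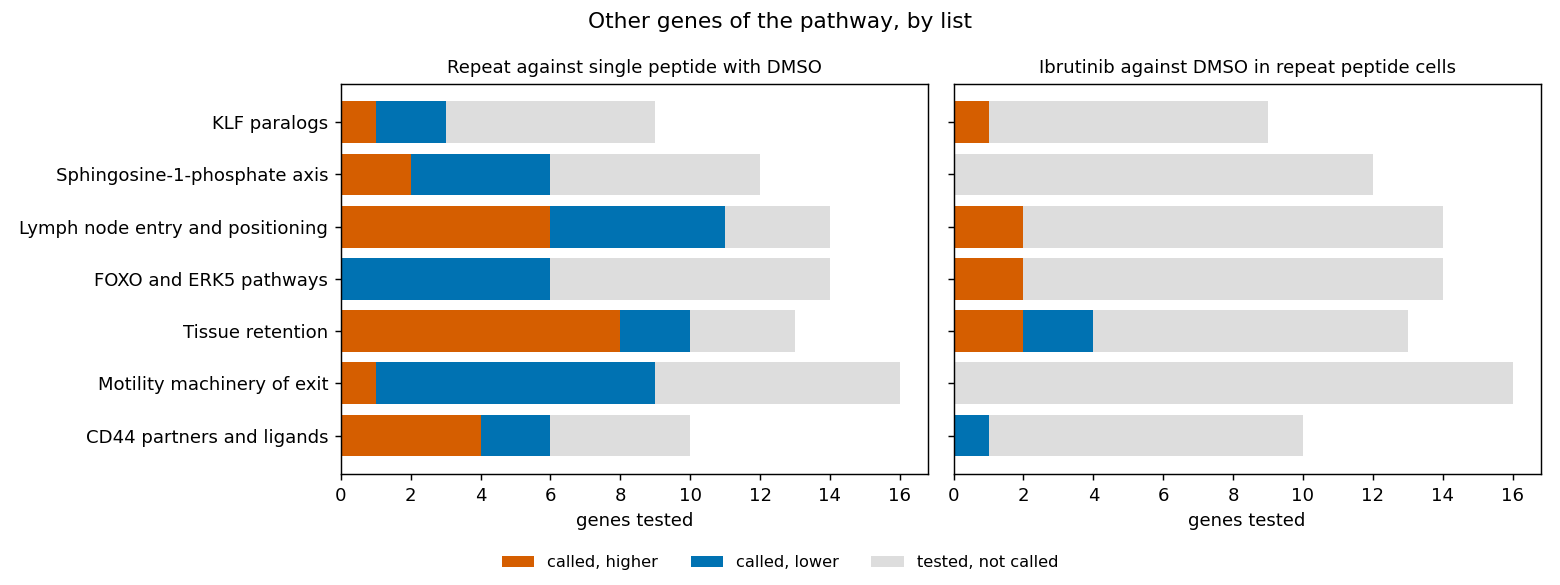
Number of tested genes called higher (orange), called lower (blue) and not called (grey) in 7 lists, for repeat against single stimulation with DMSO (left) and ibrutinib against DMSO in repeat peptide cells (right). Tissue retention has 8 higher of 13 on the left, beside 22.8% of all genes. On the right no list has more than 4 called, beside 5.92% of all genes.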

How the data were processed

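RNA-seq tables of 18 libraries were used. After trimming, the authors ran RSEM 1.3.1 with STAR on GRCm38 and deposited, for each gene, an expected count (their estimated number of reads, which need not be whole), a TPM value, an FPKM value and an effective length. Expected counts were rounded, and 27903 genes that the GENCODE M21 annotation types as protein-coding or lncRNA were kept. Of these 12255 passed filterByExpr and entered a robust glmQLFit with TMM factors in edgeR 4.0.16 under R 4.3.3, with all 4 groups in 1 fit because each has 4 or 5 libraries, and p-values were adjusted by the Benjamini-Hochberg method. TPM served only to compare levels between genes, the deposited FPKM values were not used, and the effective length served in an alternative. The standard error is the fold change divided by the root of the F statistic.

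The members and lists were chosen with earlier results of these data known. Named genes are the members, up to 2 called genes that rose most and 2 that fell most per list in 2 comparisons, and the 3 genes nearest to each member. The uncalled *Mef2c* was named in addition, after the data were seen. The ratios and the alternatives for list genes were chosen after the data were seen. Groups came from the sample titles, and experiments from the genotype entry. All 24 pairs of libraries of the same experiment in different groups deviated together from the group means (r from 0.16 to 0.49), against a median of -0.08 over 97 other pairs, so the experiment was taken to pair the libraries. The fit without it follows the study's methods, which name no block, and the block is an alternative. Chi-square tests between libraries of a group gave at least 28.7 per degree of freedom, far beyond sampling noise, so none was a copy. The labels do not say that cultures came from separate animals, so p-values measure the spread between these cultures. Alternatives were DESeq2 size factors, no filter, all gene types, a length offset, only the compared groups, DESeq2 1.42.0 in place of edgeR, an absolute log2 fold change above 1 and each library left out. Scripts were tested on simulated data. Single results of a few list genes are not reported here.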

Additional observations from a re-analysis of the deposited data

Results flagged for a closer look

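In 2 of the 28 sets of values formed by a member and a group, a single library lay far from the others by Dixon's test at its 95% level, which by chance marks about 1 in 20 sets. *S1pr4* in repeat peptide DMSO library B was 4408 normalized counts, with 3143 as the nearest value. *Cd69* in single peptide DMSO library C was 2234, with 850 as the nearest. The ibrutinib effect in repeat peptide cells minus that in single peptide cells passed edgeR's test for *Klf3*, at 1.61 on the log2 scale, and for *S1pr1*, at 1.63.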

How the results depend on the processing

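Of 777 values of members recomputed under the alternatives, 735 kept their direction and side of the threshold, 23 lost and 12 gained a call, and 7 turned in direction. In repeat peptide cells ibrutinib called 5 members, and 3 with an absolute log2 fold change above 1. In single peptide cells it called 0 members, 2 with the experiment as a replicate block, 2 with only the compared groups fitted and 1 with DESeq2. The interaction called 2 members, 1 with no filter on low counts, and 1 to 4 when each library was left out. Leaving out a library moved *Cd69* between -0.57 and 0.21 for ibrutinib in repeat peptide cells, between -1.65 and 3e-04 in single peptide cells and between -0.0721 and 1.59 in the interaction, and *Ccr7* between -0.29 and 0.0131 in the interaction (log2). *Cd69* turned without repeat peptide DMSO library C, repeat peptide ibrutinib library A, B or D, or single peptide DMSO library C, and *Ccr7* without repeat peptide DMSO library C. Beyond the calls given above, the block changed no other call of a member. Over all genes, the block called 1694 in place of 726 for ibrutinib in repeat peptide cells, 1114 in place of 373 in single peptide cells and 679 in place of 154 in the interaction, DESeq2 called 1152, 612 and 350, and the compared groups alone 464 and 181 for the first 2. With an absolute log2 fold change above 1 there were 237 and 202 for ibrutinib, and 1994, 1461 and 1109 in place of 5765, 4703 and 4028 between stimulations. With a library left out, ibrutinib called 354 or more genes in repeat and 131 or more in single peptide cells, and the interaction 84 or more. Of 578 values of named list genes, *Mef2c* apart, 525 kept their call, 53 lost it and 0 turned. The number of list genes called with ibrutinib in repeat peptide cells ranged over the alternatives from 0 to 2 (1 as reported) for KLF paralogs, 0 to 1 (0) for the sphingosine-1-phosphate list, 1 to 2 (2) for entry, 0 to 4 (2) for the FOXO and ERK5 list, 2 to 6 (4) for retention, 0 to 4 (0) for motility and 0 to 1 (1) for CD44 partners. Between the DMSO groups it ranged from 1 to 5 (3), 1 to 7 (6), 9 to 13 (11), 1 to 6 (6), 10 to 11 (10), 0 to 10 (9) and 3 to 8 (6) for the same lists. Members had at least 144 expected counts in every library, and the part of depth in their spread was not tested. The cause of these changes was not tested.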
